A study of Homo sapiens with 9 samples.

Results

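Aquaporins are membrane channels that let water cross the cell membrane along an osmotic gradient. Some, the aquaglyceroporins (AQP3, AQP7, AQP9 and AQP10), also pass glycerol, and several, AQP3 and AQP8 among them, also pass hydrogen peroxide. In the liver AQP9 is known as the main glycerol channel of the hepatocyte's sinusoidal membrane, while AQP8 lies in vesicles, at the canalicular membrane and in mitochondria and is linked to bile water secretion.

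The 7 aquaporins described here, AQP1, AQP3, AQP6, AQP7, AQP8, AQP9 and AQP11, were measured in HepG2, an established human liver tumour line, among 57773 annotated features. They were chosen by name with their reads in these libraries already known, so every value of theirs below is a description, with no p-value, and supports no test. Names matched exactly for 6 of the 7; AQP1 is held as 2 overlapping features, AQP1_1 and AQP1_2, so that 8 features were read. The study asked how cells respond to tris(2-butoxyethyl) phosphate (TBOEP), an organophosphate flame retardant and plasticiser. There were 3 cultures with 0.1% DMSO alone (controls), 3 with 2.5 µM TBOEP and 3 with 125 µM TBOEP, both in 0.1% DMSO, and all 9 were exposed for 72 h. Each culture was seeded, dosed and extracted separately, and neither concentration was cytotoxic, per the labels. RNA was sequenced from bulk cultures, so fewer cells that express a gene and less of its RNA per cell cannot be told apart.

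Depth was 4023991 to 10058205 gene reads in controls, 2480964 to 11112322 at 2.5 µM and 2670690 to 11885877 at 125 µM, and replicate 3 was the shallowest of each group. All 9 hepatocyte markers listed were tested; their summed level was 65083 to 88385 CPM in controls, 53310 to 65729 CPM at 2.5 µM and 38326 to 45162 CPM at 125 µM. CPM is the usual library-size-scaled count, here with effective sizes from the trimmed mean of M-values (TMM). ALB had the largest part in that sum, at 35790 CPM in controls and 14390 CPM at 125 µM. Of the 9 hepatocyte markers 0 rose, 6 fell and 3 did not pass at 125 µM against control, with a median of -0.68. At 2.5 µM against control 1 rose, 2 fell and 6 did not pass, with a median of -0.25. Bile duct markers, 4 of 6 tested and CFTR at 0, summed to 362 to 389 CPM in controls, 373 to 416 CPM at 2.5 µM and 454 to 492 CPM at 125 µM. At 125 µM against control KRT19 rose (1.56 ± 0.17, adjusted p = 1.77e-05), SOX9 fell (-0.84 ± 0.14, adjusted p = 0.000362 in edgeR's test) and 2 did not pass, with a median of -0.13; their part in the aquaporin values was not tested. Reads from introns made up 7.73 to 8.60% of gene reads in controls, 6.46 to 8.97% at 2.5 µM and 6.89 to 7.34% at 125 µM.

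AQP3 and AQP8, the pair with higher levels at 125 µM, have promoters in the RefSeq table (GRCh38.p14), and these are printed for that reason, from 250 bases before the annotated start to 50 bases after it. Capitals mark matches to 8 motifs searched on both strands. The TATA box was searched as TATAAA. The GC box, bound by SP1-type factors, was searched as GGGCGG. The nuclear receptor element was searched as AGGTCA. The antioxidant response element was searched as TGACNNNGC. The AP-1 element, bound by JUN and FOS, was searched as TGANTCA. The cAMP response element was searched as TGACGTCA. The E box, bound by helix-loop-helix factors, was searched as CACGTG. The last motif was the CCAAT box. AQP3 is at chr9:33447544-33447843 on the minus strand and AQP8 at chr16:25216697-25216996 on the plus strand.
AQP3: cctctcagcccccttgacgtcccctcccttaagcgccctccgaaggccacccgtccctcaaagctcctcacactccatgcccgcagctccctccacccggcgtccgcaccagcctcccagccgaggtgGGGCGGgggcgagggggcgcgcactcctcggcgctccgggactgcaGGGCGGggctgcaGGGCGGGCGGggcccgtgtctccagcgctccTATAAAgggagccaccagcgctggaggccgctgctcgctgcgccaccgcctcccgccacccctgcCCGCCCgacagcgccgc
AQP8: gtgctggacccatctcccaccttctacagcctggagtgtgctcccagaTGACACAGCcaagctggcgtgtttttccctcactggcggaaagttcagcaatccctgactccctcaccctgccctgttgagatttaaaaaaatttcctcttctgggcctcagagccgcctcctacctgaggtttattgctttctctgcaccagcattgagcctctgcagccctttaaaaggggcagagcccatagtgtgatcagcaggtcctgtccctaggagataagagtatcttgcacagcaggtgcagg

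The AQP3 window holds a TATA box from -32 to -27 relative to the start and 5 GC boxes, of which those from -63 to -58 and from -59 to -54 overlap. The AQP8 window holds 1 match, to the antioxidant response element, from -202 to -194. Of 35116 promoters of this length, 11.5% hold the TATA box, 45.0% the GC box and 13.3% the antioxidant response element. The G and C share is 75.3% for AQP3 and 53.7% for AQP8, beside a median of 58.7% over all promoters. The other motifs were in neither window; the nuclear receptor element is in 13.8% of all promoters, AP-1 in 7.71%, the cAMP element in 1.85%, the E box in 7.26% and CCAAT in 34.6%. A match is a description of letters, not a site.

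AQP3 and AQP8 were higher and AQP6 was lower at 125 µM than in controls, while AQP7 and AQP11 overlapped between all groups. AQP3, which passes water, glycerol and peroxide, averaged 39.3 ± 4.65 CPM at 125 µM against 9.23 ± 3.66 CPM in controls (mean ± SD, n = 3 each). AQP8 averaged 4.84 ± 0.997 CPM at 125 µM against 0.493 ± 0.243 CPM in controls. AQP6 averaged 0.205 ± 0.187 CPM at 125 µM against 5.18 ± 2.02 CPM in controls. In edgeR's quasi-likelihood fit over all 12901 genes with enough reads, 5 of the 7 aquaporins were included; 2 of these were higher and 1 lower at an adjusted p of 0.05. Of all genes tested 20.3% were higher and 19.9% lower, 40.2% together. For 3 of the 5 the ranges of 125 µM and control libraries were apart, beside 50.9% of all genes tested. The members were chosen with these values known, so nothing is read from those counts. AQP8 passed the filter on low counts only through the 125 µM libraries, where it is high. AQP6 could not have passed that filter without control libraries, where it is high.

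**Figure D1:**
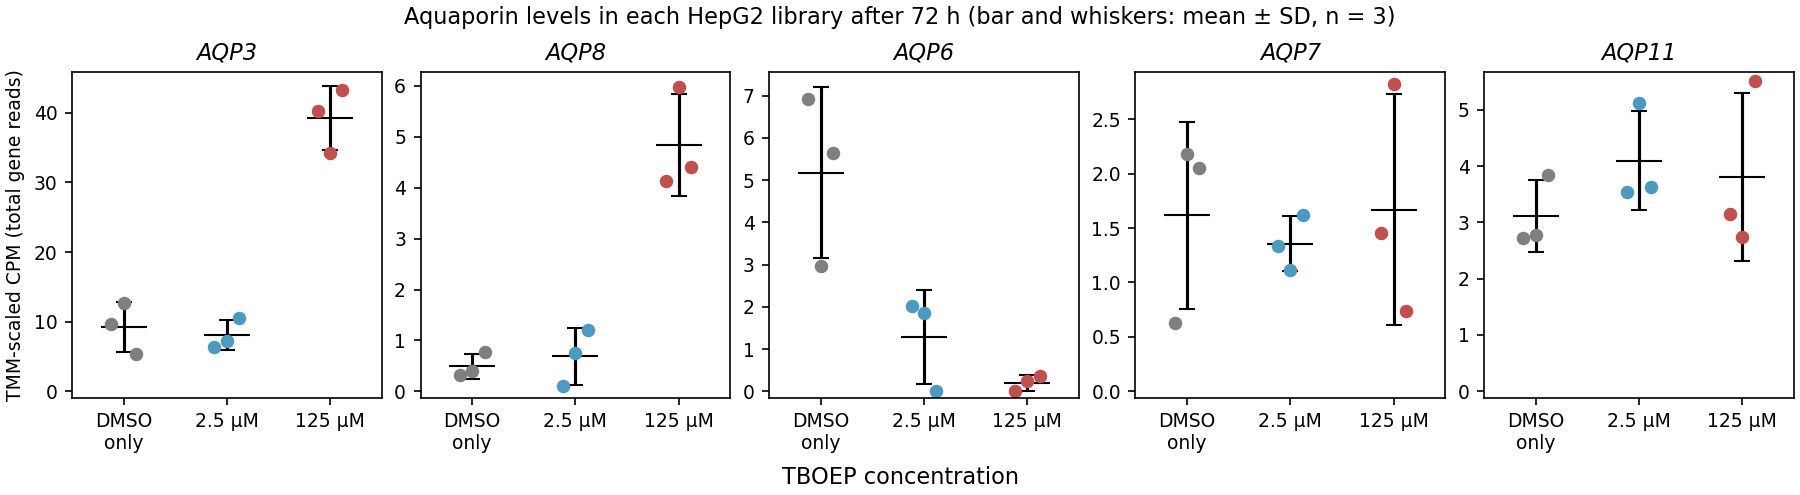
TMM-scaled CPM of AQP3, AQP8, AQP6, AQP7 and AQP11 in each of the 9 libraries (points), by TBOEP concentration, with the mean and SD of 3 libraries. AQP3 and AQP8 stand apart at 125 µM, AQP6 is highest in the controls, and AQP7 and AQP11 overlap between all groups.

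Among the aquaglyceroporins AQP3 had the most reads. The gene lies on the minus strand of chromosome 9 from 33441152 to 33447609 (all gene positions are on hg19, the build of the files). In replicates 1 to 3 its total gene reads were 92, 64 and 21 with DMSO only, then 67, 78 and 26 with 2.5 µM TBOEP, and 332, 412 and 118 with 125 µM TBOEP. Scaled to CPM these were 9.65, 12.7 and 5.39 in controls, 6.41, 7.25 and 10.5 at 2.5 µM, and 40.3, 34.2 and 43.3 at 125 µM. The lowest 125 µM library was above the highest library of both other groups, whereas 2.5 µM and control libraries overlapped.

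The log2 fold change of AQP3 from the fit was 2.03 ± 0.21 (SE) for 125 µM against control, a 4.08-fold difference, and 2.38 ± 0.21 for 125 µM against 2.5 µM, a 5.22-fold difference. For 2.5 µM against control it was -0.35 ± 0.24. Larger log2 rises at 125 µM against control were seen in 111 of the 12901 genes tested, and against 2.5 µM in 14. Of all 1210 reads of AQP3, 1205 lay in exons. Exon-junction reads, which span a splice, numbered 36 in controls, 29 at 2.5 µM and 163 at 125 µM.

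The mean CPM of AQP3 was exceeded by 68.2% of the genes tested in controls, by 71.0% at 2.5 µM and by 34.9% at 125 µM. On the authors' deposited quantile-normalised scale AQP3 averaged 307 ± 35.8 at 125 µM against 77.8 ± 30.8 in controls (n = 3 each).

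AQP7, the glycerol channel known best from adipocytes, lies on the same strand of chromosome 9 from 33384765 to 33402643, with a gap of 38508 bases to AQP3. It had 6, 11 and 8 reads in controls, 14, 12 and 4 at 2.5 µM, and 12, 34 and 2 at 125 µM. The CPM values were 0.629, 2.18 and 2.05 in controls, 1.34, 1.12 and 1.62 at 2.5 µM, and 1.46, 2.82 and 0.734 at 125 µM. All 3 groups overlapped, and the 125 µM group held both a library near 3 CPM and one under 1 CPM, the shallow replicate 3. The log2 fold change was 0.48 ± 0.48 for 125 µM against control, -0.15 ± 0.52 for 2.5 µM against control and 0.63 ± 0.47 for 125 µM against 2.5 µM. Intron reads were 19 of 48 at 125 µM against 12 of 25 in controls.

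AQP7 has near-identical pseudogene copies, and reads could be split among them, so these values are uncertain, although the files mark all 103 AQP7 reads as unique. AQP7P3, which is no member, had 12, 35 and 6 reads at 125 µM against 1, 4 and 0 in controls (log2 fold change 2.97 ± 0.68, adjusted p = 0.00313 in edgeR's quasi-likelihood test). AQP7P1 had 29, 28 and 6 reads at 125 µM against 2, 9 and 1 in controls (2.02 ± 0.54, adjusted p = 0.00853 in the same edgeR test), and 54 of its 63 reads at 125 µM lay in introns. Both pseudogenes could pass the filter on low counts only with the 125 µM libraries, where they are high. Their values are therefore a description and support nothing further. With 5 control reads the AQP7P3 value is loose: it was 2.29 without control replicate 1 and 4.65 without control replicate 2, and 1.15 to 4.65 over 16 alternatives, in all of which it was called. Without control replicate 1 the AQP7P1 call was lost (adjusted p = 0.0824). AQP7P2 had 2 reads at 125 µM against 0 in controls, both under the limit of 3 reads. Of the adipocyte markers ADIPOQ, FABP4, LEP and LPL had no read in any library, and CIDEC, a lipid droplet protein, was the 1 tested member of 6 and rose at 125 µM against control (3.02 ± 0.31, adjusted p = 9.69e-06 in edgeR's test). PLIN1, another lipid droplet protein, was not tested and had 8 reads at 125 µM against 21 in controls. The summed level of the list was 8.25 to 11.3 CPM at 125 µM against 1.78 to 2.82 CPM in controls, a difference carried by CIDEC. Its part in the AQP7 values was not tested.

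AQP9 (chromosome 15, 58430368 to 58478110, plus strand), the aquaglyceroporin of normal hepatocytes, had 0 reads in all 9 libraries. Over 65450192 gene reads a count of 0 allows up to 3 reads, or 0.0460 CPM. The levels of AQP9 therefore could not be compared between groups at this depth. In the files' annotation its body lies inside that of ALDH1A2, a retinaldehyde dehydrogenase, which had 176 reads and was higher at 125 µM (2.74 ± 0.40, adjusted p = 0.000116 in edgeR's test). AQP10, the remaining human aquaglyceroporin and no member, had 3 reads at 125 µM against 1 in controls, and 7 in all.

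AQP8 (chromosome 16, 25227052 to 25240261, plus strand), the channel for water, ammonia and peroxide, was near the detection limit without the high concentration. Total gene reads were 3, 2 and 3 in controls, 1, 8 and 3 at 2.5 µM, and 34, 72 and 12 at 125 µM. In CPM these were 0.315, 0.396 and 0.770 in controls, 0.0956, 0.744 and 1.21 at 2.5 µM, and 4.13, 5.98 and 4.40 at 125 µM. Each 125 µM library was above every other library, and the 2.5 µM and control libraries overlapped. For comparison, 3 reads correspond to 0.315 CPM in the deepest control library and 1.21 CPM in the shallowest library of all.

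The log2 fold change of AQP8 was 3.46 ± 0.50 for 125 µM against control (11.0-fold) and 3.23 ± 0.46 for 125 µM against 2.5 µM (9.40-fold). For 2.5 µM against control it was 0.23 ± 0.74. The difference from 2.5 µM was 2.54 without replicate 1 and 3.88 without replicate 2 at 2.5 µM. Larger log2 rises occurred in 8 of the 12901 genes for 125 µM against control and in 1 for 125 µM against 2.5 µM. The authors' deposited quantile-normalised values averaged 24.3 ± 6.07 at 125 µM against 1.69 ± 0.847 in controls (n = 3 each).

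AQP8 reads were mixed between exons and introns. At 125 µM 48 of 118 reads, 40.7% (exact Clopper-Pearson 95% interval 31.7 to 50.1%, counting error only), lay in introns, against 3 of 8, 37.5% (8.52 to 75.5%), in controls. The 125 µM libraries held 15, 32 and 1 intron reads, so replicate 3 differed from the others in this. Exon reads alone were 70 at 125 µM against 5 in controls, and exon-junction reads 23 against 2.

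AQP6 (chromosome 12, 50360977 to 50370922, plus strand), known from rat kidney as an anion-permeable channel of intracellular vesicles, moved the other way. It had 66, 15 and 22 reads in controls, 21, 20 and 0 at 2.5 µM, and 0, 3 and 1 at 125 µM. In CPM these were 6.92, 2.97 and 5.64 in controls, 2.01, 1.86 and 0 at 2.5 µM, and 0, 0.249 and 0.367 at 125 µM. Every control library was above every TBOEP library, and replicate 3 at 2.5 µM lay among the 125 µM ones. That library is the shallowest, and its 0 reads allow up to 1.21 CPM, which does not set it apart from the 125 µM group.

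The log2 fold change of AQP6 was -4.81 ± 0.66 for 125 µM against control, 28.1-fold lower. It was -1.67 ± 0.44 for 2.5 µM against control, 3.18-fold lower, and -3.14 ± 0.79 for 125 µM against 2.5 µM, 8.83-fold lower. Larger log2 falls occurred in 7 genes for 125 µM against control and in 40 for 2.5 µM against control. Of the 5 aquaporins fitted, 1 was lower and 4 did not pass at 2.5 µM against control, where 5.03% of all genes were lower and 6.02% higher, 11.0% together. The counts for 125 µM against 2.5 µM were 2 higher and 1 lower, where 7.48% of all genes were higher and 7.44% lower, 14.9% together. As the members were chosen on these reads, the counts only describe them. With 4 reads at 125 µM the AQP6 values rest on single libraries: without replicate 1 at 125 µM the log2 fold change was -4.20 against control and -2.53 against 2.5 µM, and without replicate 2 it was -5.58 and -3.92.

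AQP6 shares its last 217 bases, 50370706 to 50370922 or 2.18% of its body, with RACGAP1 on the opposite strand, a regulator of cytokinesis. Whether strand was used in counting is not given in the sources used here, so reads from that stretch may belong to either gene. RACGAP1 was at 22.2, 20.2 and 19.8 CPM at 125 µM against 27.0, 33.2 and 27.4 CPM in controls (log2 fold change -0.48 ± 0.12, adjusted p = 0.00617 in edgeR's test), a smaller difference than that of AQP6. Exon-junction reads counted for AQP6 were 0 at 125 µM and 2 at 2.5 µM, against 8 in controls. Of the kidney tubule markers AQP2, AVPR2, UMOD and SLC12A1 had no read in any library. CDH16, a kidney cadherin, fell (-3.71 ± 0.58, adjusted p = 0.000191 in edgeR's test), while SLC12A3, the thiazide-sensitive salt transporter, was at 0.65 ± 0.70 (adjusted p = 0.486) with 21 reads at 125 µM against 10 in controls. The list's summed level, 2.99 to 4.61 CPM at 125 µM against 11.1 to 66.9 CPM in controls, was lower through CDH16 alone. The part of such genes in the AQP6 values was not tested.

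**Figure D2:**
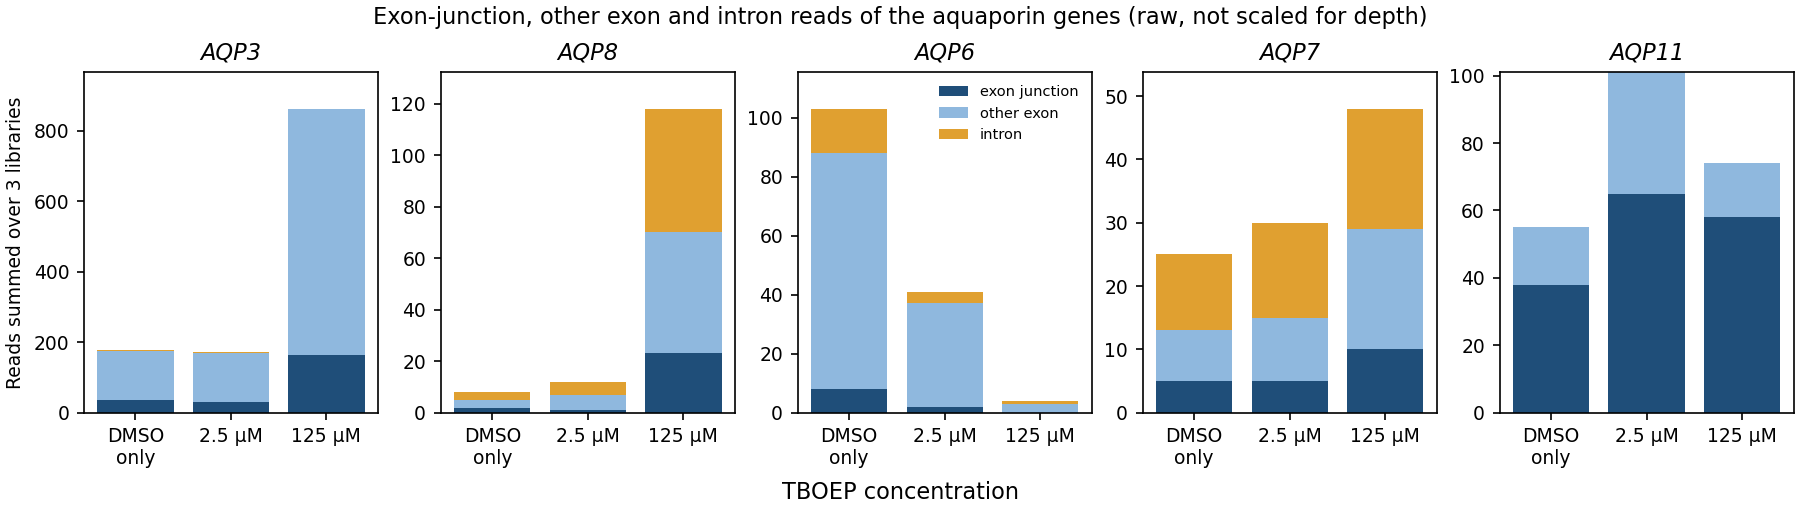
Exon-junction, other exon and intron reads of 5 aquaporin genes, raw and summed over the 3 libraries of each concentration, not scaled for depth. AQP3 and AQP11 reads are nearly all exonic, while AQP8 and AQP7 have a large intron share in every group.

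AQP11 (chromosome 11, 77300436 to 77321400, plus strand), an unorthodox aquaporin of the endoplasmic reticulum, was low in all groups. It had 26, 14 and 15 reads in controls, 37, 55 and 9 at 2.5 µM, and 26, 33 and 15 at 125 µM. The CPM values were 2.73, 2.77 and 3.85 in controls, 3.54, 5.11 and 3.64 at 2.5 µM, and 3.16, 2.74 and 5.51 at 125 µM. All groups overlapped, with 1 higher library at each TBOEP concentration. The log2 fold change was 0.16 ± 0.31 for 125 µM against control, 0.48 ± 0.30 for 2.5 µM against control and -0.33 ± 0.28 for 125 µM against 2.5 µM. Every AQP11 read was exonic, and 58 of 74 at 125 µM against 38 of 55 in controls spanned a splice. In the files' annotation AQP11 lies inside CLNS1A, a far more abundant chloride channel regulator on the minus strand with 8403 reads, so its reads are uncertain to that extent; CLNS1A differed by -0.07 ± 0.09 for 125 µM against control (adjusted p = 0.568 in edgeR's test).

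AQP1, the water channel of red cells and capillary endothelium, had 1 read in all 9 libraries, at 2.5 µM. It lay in feature AQP1_2 (chromosome 7, 30893010 to 30965131), while AQP1_1 had 0. Among the human aquaporin genes that are no members, AQP2, AQP5, AQP12A and AQP12B also had 0 reads, AQP4 had 1 and MIP, the lens aquaporin, had 2. The members thus include genes with as few reads as those left out, and the 2 without a fitted value, AQP1 and AQP9, are at or under the 3-read limit.

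**Figure D3:**
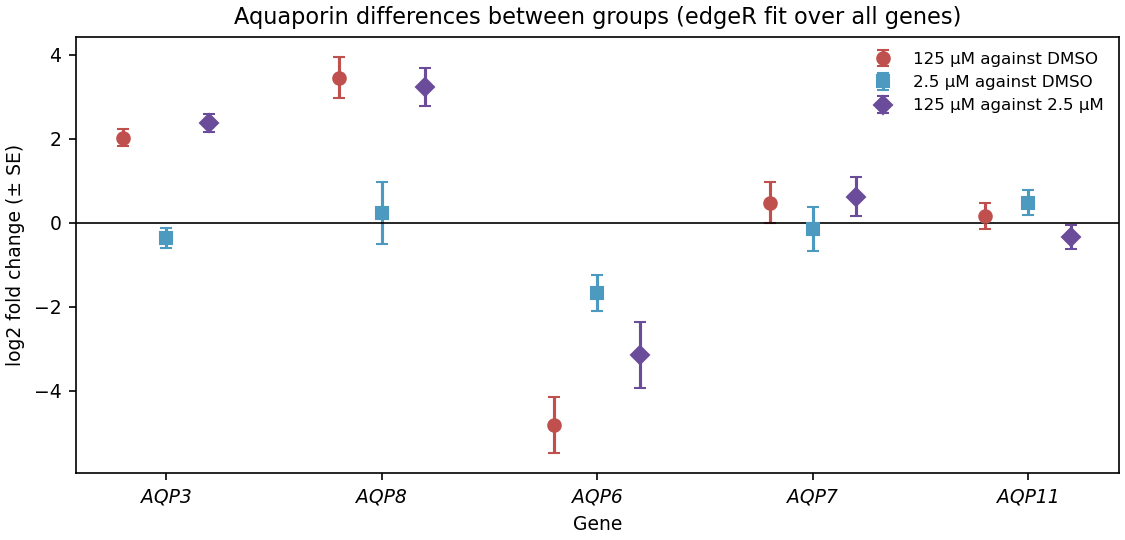
Log2 fold change with its SE from the edgeR fit for 5 aquaporins in the 3 comparisons. AQP3 and AQP8 are near 0 at 2.5 µM and above 2 in both comparisons with 125 µM on top, AQP6 is below 0 in all 3, and AQP7 and AQP11 lie within about 1 SE to 2 SE of 0.

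Per unit of exon length, on the deposited RPKM scale (exon reads scaled to exon length and to mapped reads), AQP3 ranked first in every group. In controls AQP3 averaged 3.04 ± 1.27 RPKM, AQP11 1.25 ± 0.248, AQP6 0.819 ± 0.318, AQP7 0.393 ± 0.226 and AQP8 0.197 ± 0.0749 RPKM (n = 3). Only AQP3 was clear of the next gene there; AQP11 and AQP6, AQP6 and AQP7, and AQP7 and AQP8 had overlapping libraries. At 2.5 µM the order was AQP3 (2.68 ± 0.741), AQP11 (1.67 ± 0.314), AQP7 (0.320 ± 0.0941), AQP8 (0.292 ± 0.249) and AQP6 (0.222 ± 0.193 RPKM), the last 3 overlapping each other in turn. At 125 µM it was AQP3 (13.4 ± 1.63), AQP8 (2.28 ± 0.620), AQP11 (1.59 ± 0.631), AQP7 (0.433 ± 0.418) and AQP6 (0.0162 ± 0.0280 RPKM). The ranges of AQP8 and AQP11 overlapped there, as did those of AQP7 and AQP6. Within each 125 µM library AQP8 was above AQP11, at 1.63, 2.34 and 2.86 against 1.32, 1.14 and 2.31 RPKM in replicates 1 to 3. In controls AQP8 had the lowest mean of the 5.

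The RPKM of all members summed to 17.7 ± 2.09 at 125 µM against 5.70 ± 0.992 in controls, and was 5.19 ± 0.761 at 2.5 µM (n = 3 each). AQP3 made up 75.7% ± 3.85 of that sum at 125 µM, 51.0% ± 7.34 at 2.5 µM and 51.8% ± 14.0 in controls. The 125 µM libraries lay at 72.8 to 80.1%, above the 36.3 to 63.3% of the controls.

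**Figure D4:**
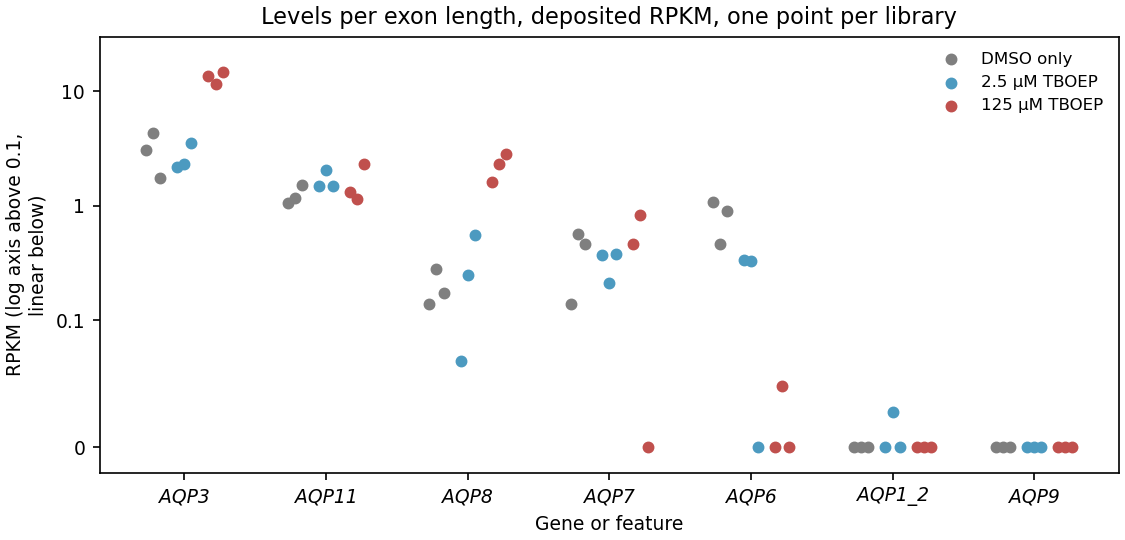
Deposited RPKM of the aquaporin features in each library, one point per library, on an axis that is logarithmic above 0.1 and linear below. AQP3 is highest in all 3 groups, AQP8 is above AQP11 within each 125 µM library, and AQP9 is at 0 in all libraries.

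By Pearson's r of log2 CPM over the 9 libraries, the genes most like AQP3 were SH2D5 (r = 0.979), C15orf61 (0.971) and ABR (0.968). SH2D5 averaged 3.22 CPM in controls, 3.32 at 2.5 µM and 18.4 at 125 µM. Nearest to AQP8 were TIMP1, an inhibitor of metalloproteases (0.989), RP11-381O7.3 (0.986) and NES, the filament protein nestin (0.982). For AQP6 they were CGGBP1 (0.980), ZBTB5 (0.978) and KLKB1, which encodes plasma prekallikrein (0.976). KLKB1 averaged 2.15 CPM in controls, 0.880 at 2.5 µM and 0.314 at 125 µM. AQP7 came closest to NAA25 (0.926), USP31 (0.903) and NUP62 (0.901), and AQP11 to PIGK (0.934), TWSG1 (0.892) and ETFA (0.883). These are the highest values among all genes tested, over libraries that differ in depth and dose, and are a description.

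Neighbouring genes were tested, since the choice of members did not use them. NOL6, the next tested gene beyond AQP3, differed by 0.18 ± 0.14 for 125 µM against control (adjusted p = 0.326), and NFX1, on the far side of AQP7, by 0.09 ± 0.09 (adjusted p = 0.443 in edgeR's test). Beside AQP8, the methyltransferase gene LCMT1 rose by 0.46 ± 0.10 (adjusted p = 0.00238 in edgeR's test) and ZKSCAN2 was at 0.30 ± 0.13 (adjusted p = 0.0839). Beside AQP6, NCKAP5L fell (-0.57 ± 0.15, adjusted p = 0.00805 in edgeR's test) and ASIC1, an acid-sensing ion channel, was at -1.02 ± 0.57 (adjusted p = 0.172). Next to AQP11, the kinase PAK1 rose by 0.78 ± 0.24 (adjusted p = 0.0185 in edgeR's test) and RSF1 was at -0.12 ± 0.09 (adjusted p = 0.290). The nearest tested flanking genes of AQP1 and AQP9 lay 219360 to 1559819 bases away. Of these, GARS, LSM5 and POLR2M rose (0.32 ± 0.09, 0.48 ± 0.11 and 0.51 ± 0.19, adjusted p = 0.0124, 0.00287 and 0.0486 in edgeR's test). LIPC, which is also in the glycerol list below, fell (-0.53 ± 0.12, adjusted p = 0.00256 in edgeR's test). At 125 µM against control the absolute differences of these flanking genes were smaller than those of AQP3, AQP8 and AQP6. Those members were chosen with their values known, so this comparison is a description only. ALDH1A2, which overlaps AQP9 and is not among the flanking genes, differed by 2.74 ± 0.40, more than AQP3. Any effect shared by a region was not tested.

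Other genes came from 7 lists with 161 genes, of which 124 were tested, and none of the 161 is a member. The lists cover other aquaporin genes, glycerol metabolism, hydrogen peroxide, and osmolytes and cell volume. They also cover aquaporin traffic and cAMP signalling, bile formation and transport, and regulators of aquaporin transcription. All were chosen with earlier results of these data known, so the shares below are a description. AQP7P1 and AQP7P3 are among the tested genes. At 125 µM against control 32 were higher and 28 lower, 48.4% of those tested, beside 40.2% of all genes. At 2.5 µM against control 12 were higher and 11 lower, 18.5% beside 11.0%. For 125 µM against 2.5 µM 18 were higher and 16 lower, 27.4% beside 14.9% of all genes. The 2 comparisons with the controls share these 3 libraries. At 2.5 µM the count depended on single libraries: it was 5 without control replicate 1, 10 without control replicate 3 and 6 without replicate 3 at 2.5 µM. For 125 µM against 2.5 µM it was 12 without replicate 2 and 20 without replicate 1 at 125 µM, and 17 without replicate 2 at 2.5 µM.

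**Figure D5:**
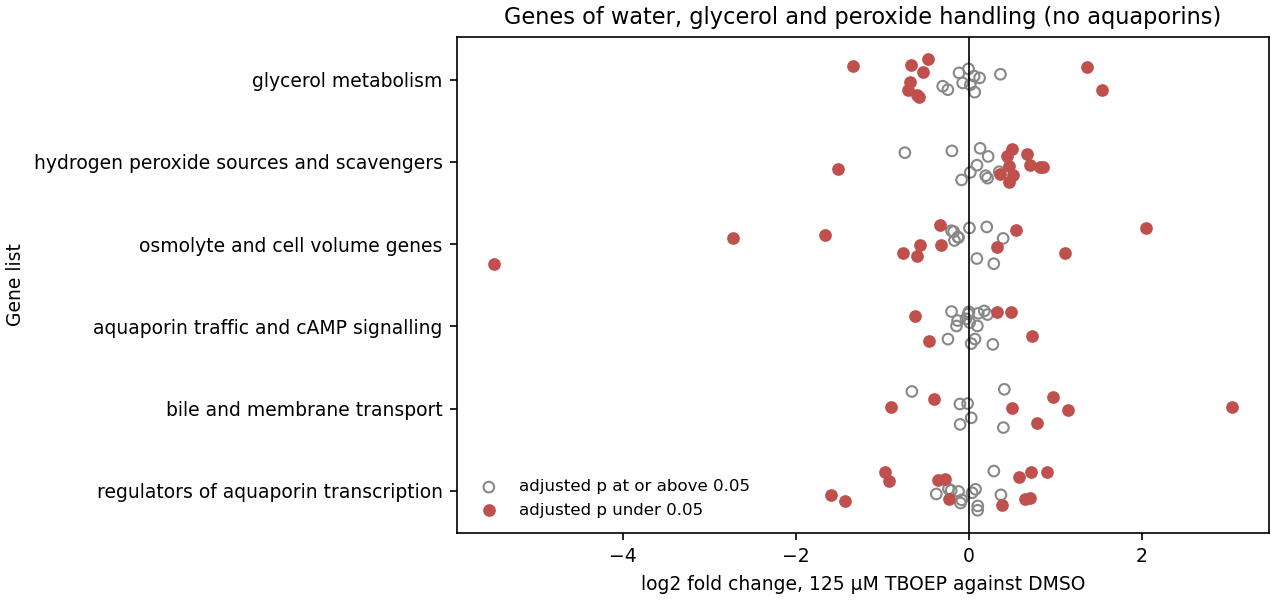
Log2 fold change at 125 µM against DMSO of the tested genes in 6 gene lists, other aquaporin genes left out, with genes past an adjusted p of 0.05 filled. SLC6A12 lies farthest below 0, in the osmolyte list, and SLC51A farthest above 0, in the transport list.

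Glycerol metabolism, which uses the solute that AQP3, AQP7 and AQP9 carry, had 20 tested genes: 2 rose, 8 fell and 10 did not pass at 125 µM against control, with a median log2 fold change of -0.18 beside 0.00356 for all genes. AGPAT9, an acyltransferase that acts on glycerol 3-phosphate, was at 57.2 ± 5.35 CPM at 125 µM against 19.8 ± 7.56 CPM in controls (1.54 ± 0.20, adjusted p = 4.76e-05 in edgeR's test). GPD1, the cytosolic glycerol 3-phosphate dehydrogenase, was at 11.9 ± 1.48 CPM at 125 µM against 4.69 ± 1.35 CPM in controls (1.37 ± 0.23, adjusted p = 0.000365 in edgeR's test). GK, the kinase that traps glycerol, fell to 177 ± 23.8 CPM at 125 µM, against 281 ± 12.6 CPM in controls (-0.67 ± 0.11, adjusted p = 0.000213 in edgeR's test). PNPLA2, the lipase that starts triglyceride breakdown, fell too (-0.58 ± 0.10, adjusted p = 0.000516). At 2.5 µM against control GK (-0.48 ± 0.11, adjusted p = 0.0134) and AGPAT6 (-0.37 ± 0.10, adjusted p = 0.0278 in edgeR's test) fell and 18 did not pass; both calls were lost without control replicate 1 and without replicate 3 at 2.5 µM. Between 125 and 2.5 µM 2 rose, AGPAT9 (1.28 ± 0.19) and GPD1 (1.04 ± 0.22), and 5 fell, among them GPAM, which starts glycerolipid synthesis (-0.57 ± 0.14, adjusted p = 0.0114 in edgeR's test). The GPAM call was lost in 4 of 19 alternatives, among them leaving out replicate 2 at 125 µM or replicate 1 at 2.5 µM (adjusted p = 0.132 at most).

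Of 21 tested genes that make or remove hydrogen peroxide, 10 rose, 1 fell and 10 did not pass at 125 µM against control, with a median of 0.35. The oxidase genes CYBB, NOX1, NOX4 and NOX5 had 0, 8, 6 and 0 reads over all libraries and were not tested, while DUOX1, with 90, was. CYBA, a subunit of NADPH oxidases, was at 108 ± 6.49 CPM at 125 µM against 59.9 ± 10.4 CPM in controls (0.86 ± 0.12, adjusted p = 7.86e-05 in edgeR's test). The glutathione peroxidases GPX1 (0.82 ± 0.12, adjusted p = 0.000123) and GPX4 (0.51 ± 0.08, adjusted p = 0.000207) rose as well. GPX2, another member of that family, fell to 37.0 ± 7.15 CPM at 125 µM, against 102 ± 17.5 CPM in controls (-1.51 ± 0.17, adjusted p = 1.95e-05 in edgeR's test). At 2.5 µM against control 8 rose, 1 fell and 12 did not pass, with a median of 0.29; GPX3, the secreted glutathione peroxidase, was at 537 ± 49.6 CPM at 2.5 µM against 276 ± 56.7 CPM in controls (0.97 ± 0.14, adjusted p = 0.00488 in edgeR's test). Between 125 and 2.5 µM 3 rose, among them CYBA (0.56 ± 0.12, adjusted p = 0.00527 in edgeR's test), and 3 fell, among them GPX2 (-0.65 ± 0.17, adjusted p = 0.0215); the GPX2 call was lost without replicate 1 or 2 at 125 µM or replicate 2 at 2.5 µM.

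Osmolyte and cell volume genes, 22 tested, had 4 higher, 8 lower and 10 that did not pass at 125 µM against control, with a median of -0.15. SLC6A12, which imports the osmolyte betaine, had a log2 fold change of -5.49 ± 0.68 for 125 µM against control (adjusted p = 4.03e-05 in edgeR's test) and was at 36.4 ± 31.3 CPM at 2.5 µM against 288 ± 203 CPM in controls. AKR1B1, the aldose reductase that makes sorbitol, was at 55.8 ± 7.95 CPM at 125 µM and 92.2 ± 43.9 CPM at 2.5 µM, against 361 ± 282 CPM in controls (-2.73 ± 0.46, adjusted p = 0.000344 for 125 µM in edgeR's test). SGK1, a kinase that regulates ion channels, fell to 16.2 ± 4.58 CPM at 125 µM, against 54.5 ± 3.22 CPM in controls (-1.66 ± 0.14, adjusted p = 2.79e-06 in edgeR's test). BHMT, which uses betaine to methylate homocysteine, rose (2.05 ± 0.39, adjusted p = 0.000953). At 2.5 µM SLC6A12, AKR1B1 and LRRC8D, a subunit of volume-regulated anion channels, fell and 19 genes did not pass. The LRRC8D call was lost in 11 of 19 alternatives, and that of AKR1B1 without control replicate 1 or replicate 3 at 2.5 µM. Between 125 and 2.5 µM 3 rose and 2 fell.

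In the list on aquaporin traffic and cAMP signalling 3 of 20 tested genes rose, 2 fell and 15 did not pass at 125 µM against control. RAB11A, a GTPase of recycling vesicles, rose by 0.49 ± 0.09 (adjusted p = 0.000722 in edgeR's test), and the phosphodiesterases PDE3B (-0.63 ± 0.11, adjusted p = 0.000649) and PDE4D (-0.46 ± 0.09, adjusted p = 0.00130) fell. The PDE4D call was lost on RPKM (adjusted p = 0.0704 at most). GCGR, the glucagon receptor, had 7 reads in all and was not tested. At 2.5 µM RAB11A rose and PDE3B fell, and the PDE3B call was lost in 11 of 19 alternatives. With 125 µM set against 2.5 µM 2 rose, among them PRKACA, the catalytic subunit of protein kinase A (0.49 ± 0.12, adjusted p = 0.0128 in edgeR's test), and 2 fell. The PRKACA call was lost without replicate 1 at 125 µM and without replicate 2 at 2.5 µM (adjusted p = 0.0556 at most).

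Of 14 tested genes of bile formation and membrane transport 5 rose, 2 fell and 7 did not pass at 125 µM against control. SLC51A and SLC51B, the subunits of the basolateral bile acid exporter, were at 23.9 ± 8.13 and 14.6 ± 2.59 CPM at 125 µM, against 3.20 ± 1.53 and 6.32 ± 0.344 CPM in controls (3.04 ± 0.30 and 1.15 ± 0.21, adjusted p = 7.50e-06 and 0.000657 in edgeR's test). ABCC3 rose (0.79 ± 0.13, adjusted p = 0.000267) and the canalicular phospholipid exporter ABCB4 fell (-0.90 ± 0.12, adjusted p = 7.81e-05). ABCB11, the canalicular bile salt pump, had 1 read in all. At 2.5 µM against control SLC51A rose (1.25 ± 0.35, adjusted p = 0.0343) and ABCB1 fell (-0.36 ± 0.10, adjusted p = 0.0406 in edgeR's test), calls lost in 6 and 10 of 19 alternatives. With 125 µM set against 2.5 µM 3 rose and 1 fell.

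Regulators known to act on aquaporin genes moved both ways: 6 of 25 rose, 7 fell and 12 did not pass at 125 µM against control, with a median of -0.08. PPARGC1A, a coactivator of PPAR receptors, was at 84.1 ± 0.736 CPM at 125 µM against 51.2 ± 1.71 CPM in controls (0.72 ± 0.08, adjusted p = 2.58e-05 in edgeR's test). PPARD, itself a PPAR receptor, rose (0.91 ± 0.13, adjusted p = 0.000104). NR1H4, the bile acid receptor FXR, fell to 54.8 ± 6.36 CPM at 125 µM, against 164 ± 48.1 CPM in controls (-1.59 ± 0.20, adjusted p = 4.03e-05 in edgeR's test), and HIF1A fell by 0.97 on the log2 scale (adjusted p = 7.81e-05). At 2.5 µM against control FOXO1 (0.66 ± 0.12) and PPARG (0.42 ± 0.10) rose, and HIF1A (-0.61 ± 0.13) and NR1H4 (-0.79 ± 0.19) were among the 3 that fell. The HIF1A, NR1H4 and PPARG calls at 2.5 µM were lost without control replicate 1. With 125 µM set against 2.5 µM 4 rose and 3 fell.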

How the data were processed

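RNA of 9 HepG2 cultures was sequenced as paired 50 bp reads from stranded mRNA libraries, per the labels' protocols, then aligned to hg19. The series' design text names CLC Genomics Workbench for this; version, annotation release and strand setting: not given in the sources used here. The deposited read counts per gene are raw whole numbers, per the file headers. Also deposited are RPKM values, which the authors' software made from exon reads, exon length and mapped reads. A deposited signal holds quantile-normalised expression, as the design text states.

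Reads per gene, exons and introns together, were filtered with filterByExpr, scaled by TMM and fitted in edgeR 4.0.16 (R 4.3.3; quasi-likelihood, 3 groups, no covariate, two-sided contrasts, Benjamini-Hochberg over 12901 genes, threshold 0.05), as tested on simulated data. The p-values measure the spread between separately seeded cultures. Aquaporins and gene lists were chosen with earlier results of these data known. Named genes were the members, other aquaporin genes, overlapping and flanking genes, up to 4 called genes per list and comparison with the smallest adjusted p, and the 3 genes most like each fitted member. Total depth was 2480964 to 11885877 gene reads, 3 reads being 1.21 to 0.249 CPM; intervals and limits cover counting error only. Alternatives used DESeq2 1.42.0, limma 3.58.1 on log2(RPKM + 0.5) and log2(RPKM + 0.1), upper-quartile scaling, other filters, unique or exon reads, 6-library fits, a replicate block and leaving out each library. Starts are the files' values plus 1. SLC5A3 was not analysed here. Some listed genes are not reported here. Promoters are from RefSeq, GRCh38.p14, which matched 5 of the 7 members.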

Additional observations from a re-analysis of the deposited data

How the results depend on the processing

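Under 19 alternatives the fold changes of the aquaporins moved by less than the spread between replicates for 270 values and by more for 10. On log2(RPKM + 0.5) and log2(RPKM + 0.1), where a pseudocount compresses low genes by construction, AQP8 was at 1.97 and 3.00 for 125 µM against control, and AQP6 at -1.32 and -2.94. For 125 µM against 2.5 µM the same scales gave AQP6 -0.45 and -1.22, AQP8 1.83 on the first and AQP7 -0.14 on the second. Leaving out one library gave AQP3 1.83 to 2.25, AQP8 3.11 to 3.80 and AQP6 -5.58 to -4.20 for 125 µM against control, and AQP6 -3.92 to -2.53 and AQP7 -0.039 to 0.81 for 125 µM against 2.5 µM. AQP7, AQP11 and, at 2.5 µM, AQP8 changed sign in some of these.

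Genes called numbered 1425 at 2.5 µM against control, 731 with only the 6 libraries compared, 216 and 0 on the RPKM scales (3332 at an unadjusted p under 0.05 on the second, 1244 with DESeq2), and 213 to 2050 without one library. Of the listed genes 23, 14, 3 and 0 were called (37 unadjusted on the second RPKM scale, 23 with DESeq2), and 5 to 28 without one library. For 125 µM against 2.5 µM the RPKM scales gave 968 and 864 genes and 14 and 9 listed genes, and leaving out one library gave 799 to 2230 and 12 to 35. The cause was not tested. Among genes called at 125 µM against control 66.5% were higher on RPKM beside 50.5% for counts, and 66.7% beside 53.3% of the listed genes; on the second scale the median of all genes was 0.11.

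With the replicate block 5066, 1274 and 1771 genes and 64, 20 and 30 listed genes were called. The labels do not say that a number marks a shared batch. Deviations of same-numbered libraries correlated from -0.24 to 0.18 over the 3 comparisons. For 125 µM against control the same-numbered values, 0.060 to 0.18, were above those of all other pairs, -0.16 to 0.044. In the other comparisons same-numbered pairs did not stand apart. Whether the numbers pair the samples is therefore not settled, and the main fit used no pairing. Depth limits AQP1, AQP6, AQP7, AQP8 and AQP9 most.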
